A study of Mus musculus with 384 samples.

Results

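CD45+ macrophage wells of mouse kidney were compared by their read level of Ccr2, the receptor through which blood monocytes follow its chemokine ligands into tissue. A member was a well of the PDGFRB+CD45+ sort gate with at least 50000 reads and with the complement genes C1qa, C1qb and C1qc together at 500 CPM or more. CPM are read counts scaled to the same total in every well. The 2 classes were then selected on measured Ccr2 reads: members at 100 CPM or more were called Ccr2-positive and the others Ccr2-negative. The rule gave 145 member wells of the 384 wells in the series, 39 of them Ccr2-positive and 106 Ccr2-negative. Batch 1 held 17 positive and 52 negative wells and batch 2 held 22 and 54.

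Every well held a cell sorted from kidney of mice aged 8 weeks, either PDGFRB+CD45+ or PDGFRB+CD45- (here CD45-), in 2 batches of 1 plate of 96 wells per gate. UUO stands in the names of the wells without being spelled out in the labels. Neither genotype, strain, treatment nor animal is given there. Wells of a plate are therefore not replicates of a condition here, and no test was run over them. A difference between the classes was therefore judged by whether it repeated in the other batch. Wells are named here by their number within a plate.

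Classical monocytes carry CCR2 with LY6C2, CHIL3 and PLAC8, and leave the marrow along gradients of CCL2, CCL7 and CCL12. Once in tissue they can become macrophages, losing LY6C and gaining C1q and MHC class II, while macrophages that settled in the kidney earlier usually hold little CCR2. CCR2 is thus often used to tell recently arrived macrophages from long-resident ones, and the fibrosis field has asked whether such cells also make collagen. The series compares leukocytes and stromal cells inside a PDGFRB gate, and this split asks what Ccr2 reads go along with among its macrophages.

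Few transcripts separated the classes in the same way in both batches. The most abundant macrophage transcripts, MHC class II genes and Lyz2 were high in both classes. Monocyte genes did not form a shared programme of the Ccr2-positive members. Ly6c2 and Chil3 were high in 4 and 2 positive wells of batch 2 and in no positive well of batch 1. The C1q limit of the rule had left out CD45+ wells 27 and 39 of batch 1, where Ccr2 and Ly6c2 were both high. Clec4b1, a C-type lectin gene of myeloid cells, was the single gene higher in the positive class that passed both the 2-fold call and the call on shares of wells described below. Fibrillar collagen reads were mostly those of single Ccr2-negative wells.

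Ccr2 and C1q chose the wells, so their levels are a description. Ccr2 ran from 133 to 2522 CPM in the positive wells of batch 1, with a median of 615, and from 101 to 3396 CPM in those of batch 2, with a median of 475. Just below the Ccr2 limit lay wells at 89.1 and 84.7 CPM in batches 1 and 2, and just above it wells at 133 and 101 CPM. Between 50 and 200 CPM there were 8 and 13 wells, and 5 and 8 members held no Ccr2 read. Ccr2 reads thus formed a range without a gap at the limit. Among CD45- wells, 9 of 79 and 12 of 82 held a Ccr2 read, and 0 and 1 reached 100 CPM.

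C1q transcripts were also unevenly spread between the classes. Their summed level had a median of 18306 CPM in the positive and 10802 CPM in the negative wells of batch 1, and 25956 against 15316 CPM in batch 2. Wells under 5000 CPM of C1q numbered 4 of 17 positive and 17 of 52 negative ones in batch 1, and 1 of 22 and 17 of 54 in batch 2. The negative class thus held more wells with little C1q. The members nearest to the C1q limit had 527 and 513 CPM, and the CD45+ wells nearest below it 396 and 447 CPM.

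**Figure D1:**
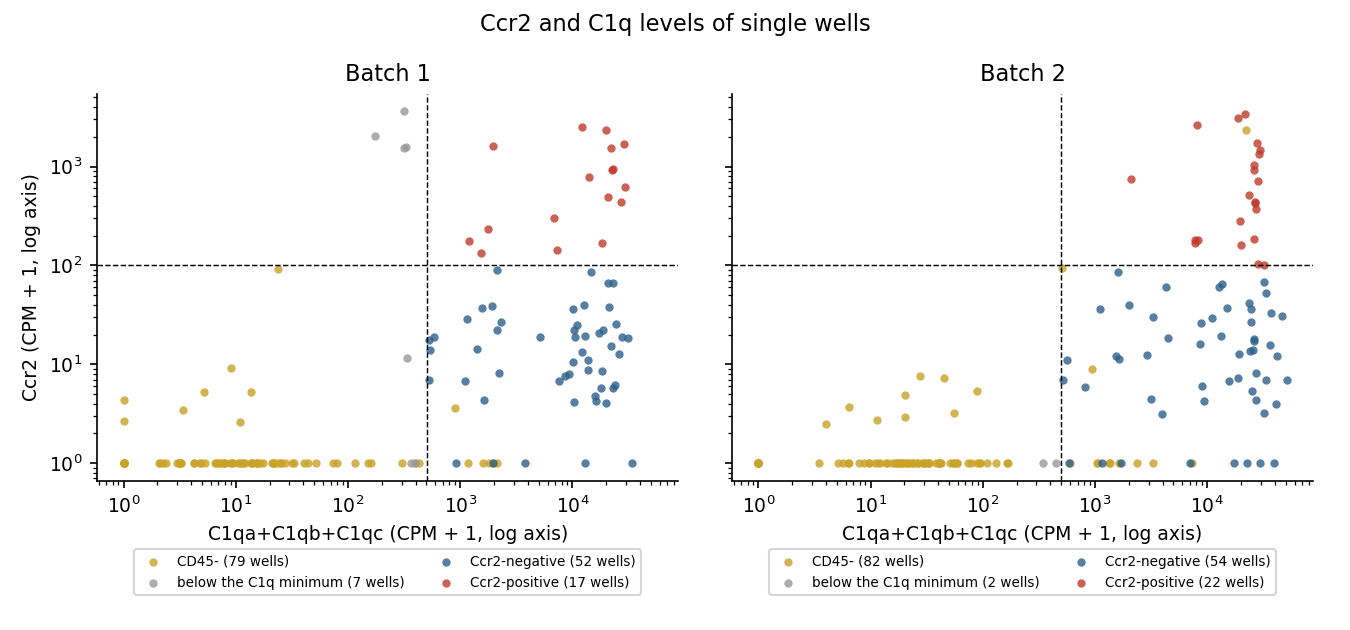
Each point is a well, with its summed C1qa, C1qb and C1qc level on the x axis and its Ccr2 level on the y axis (CPM + 1, log axes), and the dashed lines are the limits of 500 and 100 CPM that chose the classes. Ccr2 levels spread over the limit without a gap, and 4 grey wells of batch 1 lie above the Ccr2 limit but left of the C1q limit.

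The macrophage label was checked against genes the rule did not use. Csf1r, the receptor that macrophages need to survive, was at 100 CPM or more in 6 of 17 positive and 16 of 52 negative wells of batch 1, and in 14 of 22 and 19 of 54 wells of batch 2. At least 3 of 7 macrophage markers other than C1q (Csf1r, Adgre1, Cd68, Mpeg1, Fcgr1, Aif1 and Tyrobp) reached that level in 14 of 17, 38 of 52, 21 of 22 and 46 of 54 wells, in the same order. Neither Csf1r nor Adgre1, the F4/80 antigen, had a read in 5 negative wells of batch 1 and 1 of batch 2, while every positive well had a read of at least 1 of them. Adgre1 was at 100 CPM or more in 5 of 17, 10 of 52, 11 of 22 and 13 of 54 wells, in that order again. Most members thus matched the label by the count of 3 markers, though not by Csf1r or Adgre1 alone at 100 CPM. By the measures at 100 CPM the label fitted the positive wells of batch 2 best, while the positive classes were tied on reads of Csf1r or Adgre1. Macrophage markers were also high in some wells below the C1q limit. In batch 1 these 7 markers with C1q summed to 21526, 6668, 29127.5 and 28137 CPM in excluded wells 26, 27, 39 and 72. The median negative member had 22845.5 CPM, and excluded wells 5, 76 and 82 had 646, 4547 and 796 CPM. Pdgfrb, the gate's other antigen, summed to 0 and 0.0598 CPM in the positive and negative class of batch 1 and 0.286 and 9.58 CPM in batch 2, against 292 and 218 CPM in CD45- wells.

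Positive wells were sequenced somewhat deeper. Their median was 368288 reads against 261106 in negative wells in batch 1, and 391309 against 293318 in batch 2. With every well thinned at random to 50000 reads, the median number of genes with a read was 1351 against 1355.5 in batch 1 and 1448.5 against 1296.5 in batch 2. The part of depth in the shares of wells given below was not tested, beyond the thinned shares.

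For each batch the reads of a class were summed, scaled to CPM and compared as a log2 ratio, positive over negative, after adding 1. A gene was called if its ratio was 2-fold or more, in 1 direction, in batch 1 and in batch 2, and remained so with each well left out in turn. Of 3926 genes at 20 CPM or more in a class of both batches, without Ccr2 and the C1q genes, 21 were called higher in positive wells (0.535%) and 185 lower (4.71%), 5.25% in either direction. The ratios of the batches hardly went together: across the 3926 genes, which are not independent replicates, Pearson's r was 0.05 and Spearman's rho 0.05. Within a batch, 2-fold differences were common: in batch 1 alone 25.3% of genes were higher and 38.7% lower in positive wells, and in batch 2 alone 23.1% and 32.8%. Without the condition on left-out wells, 276 genes (7.03%) were 2-fold higher and 607 (15.5%) 2-fold lower in both batches, while 763 (19.4%) were 2-fold apart in opposite directions.

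Most called genes rested on a handful of wells. The median called gene was at 100 CPM or more in 3 and 4 wells of the positive class (higher genes), or in 3 and 3 wells of the negative class (lower genes), in batches 1 and 2. When the split was moved to any Ccr2 read against none, which left 5 and 8 negative wells, 1160 genes were called higher and 0 lower. Only Clec4b1 among the higher genes, and Atp6v0b, Fxyd2 and mt-Nd4 among the lower ones, reached 100 CPM in at least 25% of the wells of the class where they were higher, in both batches.

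Clec4b1 summed to 1338 CPM in positive and 457 CPM in negative wells of batch 1, a log2 ratio of 1.55, and to 1058 against 413 CPM in batch 2, a ratio of 1.35. Single positive wells had a median of 80 CPM (lowest 3.49, highest 4539.9) in batch 1 and 442 CPM (0 to 4343) in batch 2, and negative ones 31.2 (0 to 3061) and 34.3 CPM (0 to 4407). The classes overlapped over most of their range. Its share of wells at 100 CPM or more was 47.1% against 23.1% in batch 1 and 63.6% against 24.1% in batch 2. The 2-fold call was lost with the Ccr2 limit at 50 or 200 CPM, with median-of-ratios scaling, with the C1q limit at 5000 CPM and without negative well 18 of batch 2, with mean log2 ratios over both batches between 1.15 and 1.4. With any Ccr2 read against none the mean ratio was -0.17, against 1.45 as called.

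Atp6v0b, a subunit of the proton pump that acidifies lysosomes, was lower in positive wells. It summed to 257 against 749 CPM (log2 ratio -1.54) in batch 1 and 436 against 1069 CPM (-1.29) in batch 2. It was at 100 CPM in 23.5% against 50% of wells in batch 1 and in 45.5% against 55.6% in batch 2, so the classes differed more in the height of their high wells than in their number in batch 2. The call was lost with the Ccr2 limit at 200 CPM, at a mean ratio of -1.14. mt-Nd4, a mitochondrial gene of respiratory complex I, gave ratios of -1.20 and -1.28. Fxyd2, a regulator of the sodium pump that kidney tubules hold in quantity, gave -2.94 and -1.90. In batch 1 the Fxyd2 ratio was -1.40 without negative well 35, which alone held 62584 CPM.

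Since sums follow single wells, the classes were also compared by the share of wells at 100 CPM or more, a measure added after the sums had been seen. A gene was called by share where the classes lay at least 20 percentage points apart in the same direction in both batches. That step was taken after 20, 25, 30 and 40 points had all been looked at, which gave 17, 3, 0 and 0 genes higher in positive wells. At 20 points, 17 of the 3926 genes (0.433%) were higher, 0 lower (0%) and 3 (0.0764%) apart in opposite directions. Across the 3926 genes the share differences of the batches hardly went together, with a Pearson's r of 0.08. Their medians, positive minus negative, were 0.23 points in batch 1 and 2.69 points in batch 2. At 25 points Ptprc, Ucp2 and Emp3 were left, and at 30 none. With the C1q limit raised to 5000 CPM, 14 genes were higher and 1 lower, and 9 of the 17 were again among them, Ptprc not being one.

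Ptprc, one of the 17, encodes CD45, the antigen of the sort. It had a median of 414 CPM in positive and 24.5 CPM in negative wells of batch 1, and of 86.1 against 9.38 CPM in batch 2. Each of these 4 sets of wells ran from 0 CPM to a highest well between 4005 and 7166 CPM. It was at 100 CPM in 9 of 17 against 14 of 52 wells (52.9% against 26.9%, exact 95% intervals 27.8 to 77% and 15.6 to 41%), and in 11 of 22 against 9 of 54 wells of batch 2 (50% against 16.7%, 28.2 to 71.8% and 7.92 to 29.3%). These intervals, exact Clopper-Pearson, cover counting error only. In the summed reads the Ptprc ratio was 1.24 and 0.59, past 2-fold in batch 1 alone.

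Ucp2, an uncoupling protein of the inner mitochondrial membrane, was at 100 CPM in 76.5% against 42.3% of wells in batch 1 and 86.4% against 57.4% in batch 2. Emp3, a small membrane protein, stood at 76.5% against 48.1% and 77.3% against 40.7%. Their summed log2 ratios were 0.86 and 0.82 for Ucp2 and 0.76 and 0.27 for Emp3, all under 2-fold. With all reads of a well, Ucp2 was read in 94.1% of positive and 96.2% of negative wells of batch 1 and in every well of batch 2, and Emp3 in 100% and 98.1%, then in every well. The shares thus differed in wells at 100 CPM, not in wells with a read. Laptm5, a lysosomal membrane protein (76.5% against 48.1%, then 86.4% against 63%), Npc2, a cholesterol carrier of the lysosome (82.4% against 61.5%, then 90.9% against 64.8%), and Ctsa, cathepsin A (58.8% against 38.5%, then 72.7% against 44.4%), were also among the 17, and of these Ctsa alone was called at the C1q limit of 5000 CPM. The others were Atp5c1, Bcl2a1b, Ccl2, Cdc42, Clec4b1, Commd4, Ostf1, Psmb1, Rps26, Slamf9 and Toporsos. Bcl2a1b has near-identical gene copies, between which reads could be split.

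**Figure D2:**
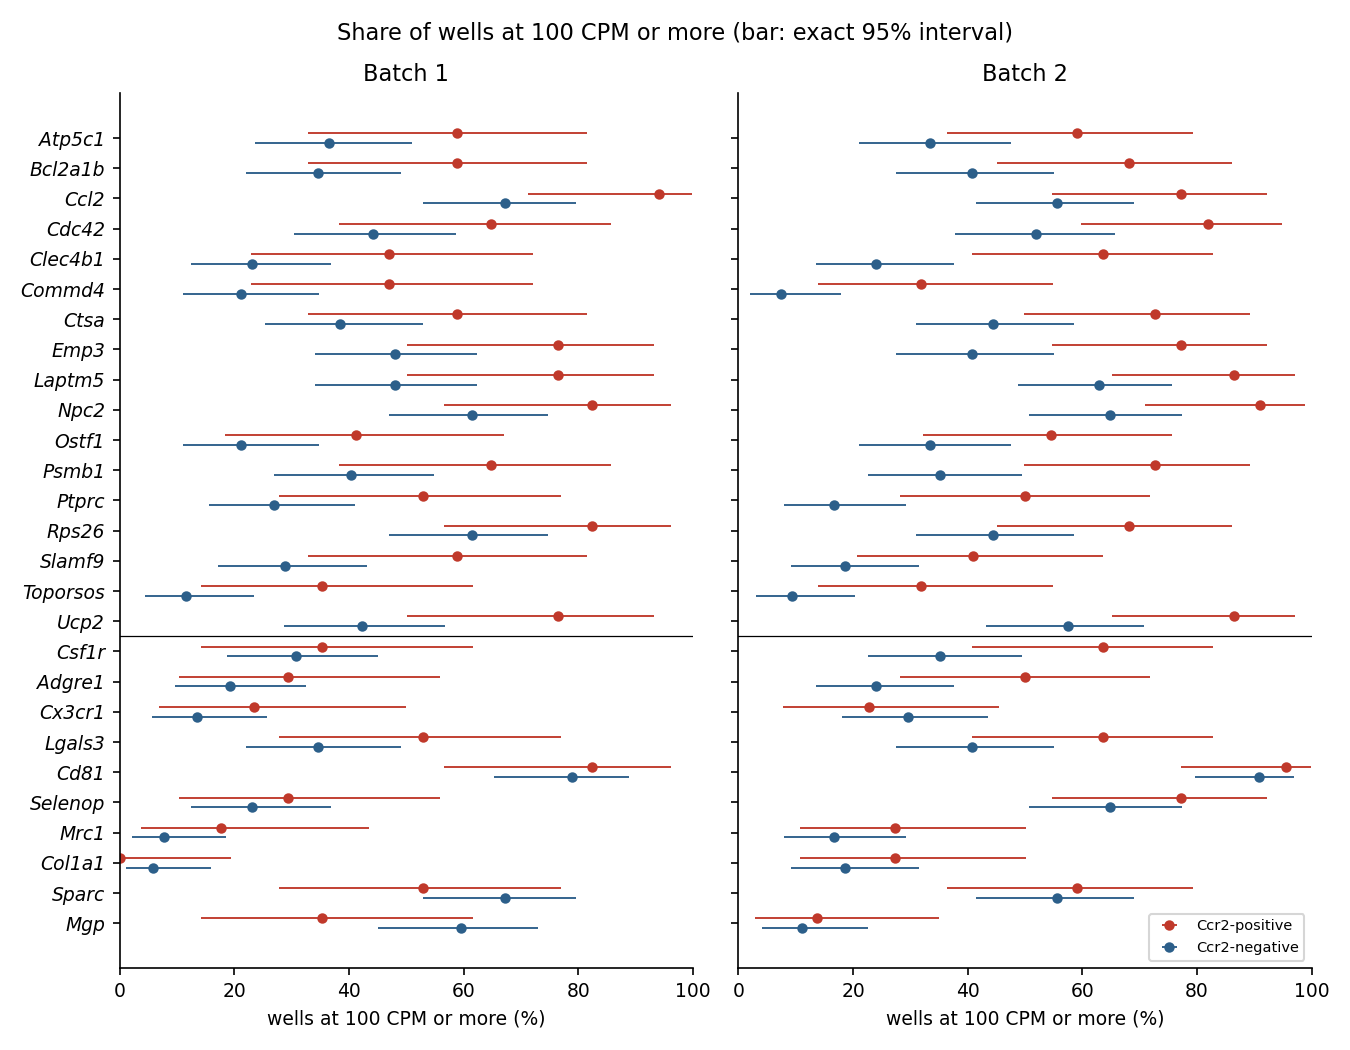
Points are the share of wells (x axis, percent) at 100 CPM or more of the gene named on the y axis, in Ccr2-positive (red) and Ccr2-negative (blue) wells of each batch, and bars are exact 95% intervals of counting error. The 17 genes above the line were chosen for their difference, at least 20 points in both batches, and most of their intervals overlap, while the 10 genes below it include Csf1r, 35.3% against 30.8% in batch 1 and 63.6% against 35.2% in batch 2.

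Genes of classical monocytes came first among the lists compared. Of 25 monocyte genes, 16 reached the tested level, 0 were called higher and 1, S100a4, lower. The list's median log2 ratio was -0.97 in batch 1 and 0.12 in batch 2, beside -0.27 and -0.12 over all tested genes. Only 6 of the 25 ratios were above 0 in batch 1, against 14 in batch 2.

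Ly6c2, the classical monocyte surface antigen, summed to 0.893 and 3.47 CPM in positive and negative wells of batch 1, where the highest positive well had 26.7 CPM. CD45+ wells 27 and 39 of batch 1, with 1048 and 1743 CPM of Ly6c2, lay below the C1q limit and were not members. In batch 2 Ly6c2 summed to 412 against 8.19 CPM, and positive wells 71, 58, 1 and 31 held 3022, 1673, 1299 and 576 CPM. The median was 9.68 CPM in positive and 6.29 CPM in negative wells of batch 2, so the other positive wells were like the negative ones. Well 71 also held 5871 CPM of natural killer cell markers and 4509 CPM of T cell markers. Chil3, a chitinase-like protein of young monocytes, was at 4544 CPM in positive well 58 and 3179 CPM in positive well 13 of batch 2, while its highest level in positive wells of batch 1 was 7.66 CPM. Well 58 was thus high in Ly6c2, Chil3 and Ccr2 (2651 CPM) alike, with 8071 CPM of C1q.

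Lyz2, the lysozyme of all myeloid cells, was abundant in both classes. It summed to 6631 against 4141 CPM in batch 1 and 10990.2 against 7163 CPM in batch 2, log2 ratios of 0.68 and 0.62, under 2-fold. Single wells had medians of 3526 and 2103 CPM in batch 1, and 6737 and 5374 CPM in batch 2. The lowest positive wells stood at 469 and 1329 CPM and the lowest negative ones at 49.3 and 161 CPM, with the classes overlapping above that. Lgals3, galectin 3 of activated macrophages, had ratios of 1.29 and 0.12.

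Other monocyte genes changed sign between the batches. Plac8 gave -1.50 and 0.24, with 11475 CPM in negative well 79 of batch 1 and 6488 CPM in positive well 13 of batch 2. F13a1, coagulation factor XIII, gave -5.66 and 4.92, and was at 100 CPM in 3 negative wells of batch 1 and 1 positive well of batch 2. Without that well, number 86, the batch 2 ratio was -0.09. Fn1, fibronectin, which stood on both the monocyte and the matrix list, gave -5.46 (-1.47 without negative well 80) and 0.12 (-4.67 without positive well 13).

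S100a4, a calcium-binding protein used both as a monocyte and as a fibroblast marker, was called lower. It summed to 2.23 against 149 CPM and 1.14 against 70 CPM, ratios of -5.54 and -5.05. Behind these sums were 4 of 52 and 3 of 54 negative wells at 100 CPM, and 0 of 17 and 0 of 22 positive ones. Most wells of both classes had no S100a4 read. With all reads one was found in more of the positive wells, 47.1% against 23.1% and 36.4% against 24.1%, which were also sequenced deeper. After thinning, an S100a4 read was found in 23.5% against 7.69% of wells in batch 1 and 4.55% against 7.41% in batch 2. At equal depth the order of the classes thus did not repeat. The S100a4 call was lost with the C1q limit at 5000 CPM, at a mean ratio of -2.68. The alarmin genes S100a8 and S100a9, most abundant in neutrophils, gave ratios of -0.34 and -0.87 in batch 1 and 2.64 and 1.28 in batch 2, and a neutrophil marker sum of 1000 CPM or more was seen in 2 of 17 positive and 9 of 52 negative wells of batch 1, and in 2 of 22 and 1 of 54 wells of batch 2. Without positive well 79 the S100a9 ratio of batch 2 was -2.36. The part of neutrophil reads in these ratios was not tested. Of the 11 genes of patrolling monocytes, 4 reached the tested level and none was called, the most abundant being Fcgr4, an activating Fc receptor, at ratios of 1.14 and 0.64.

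**Figure D3:**
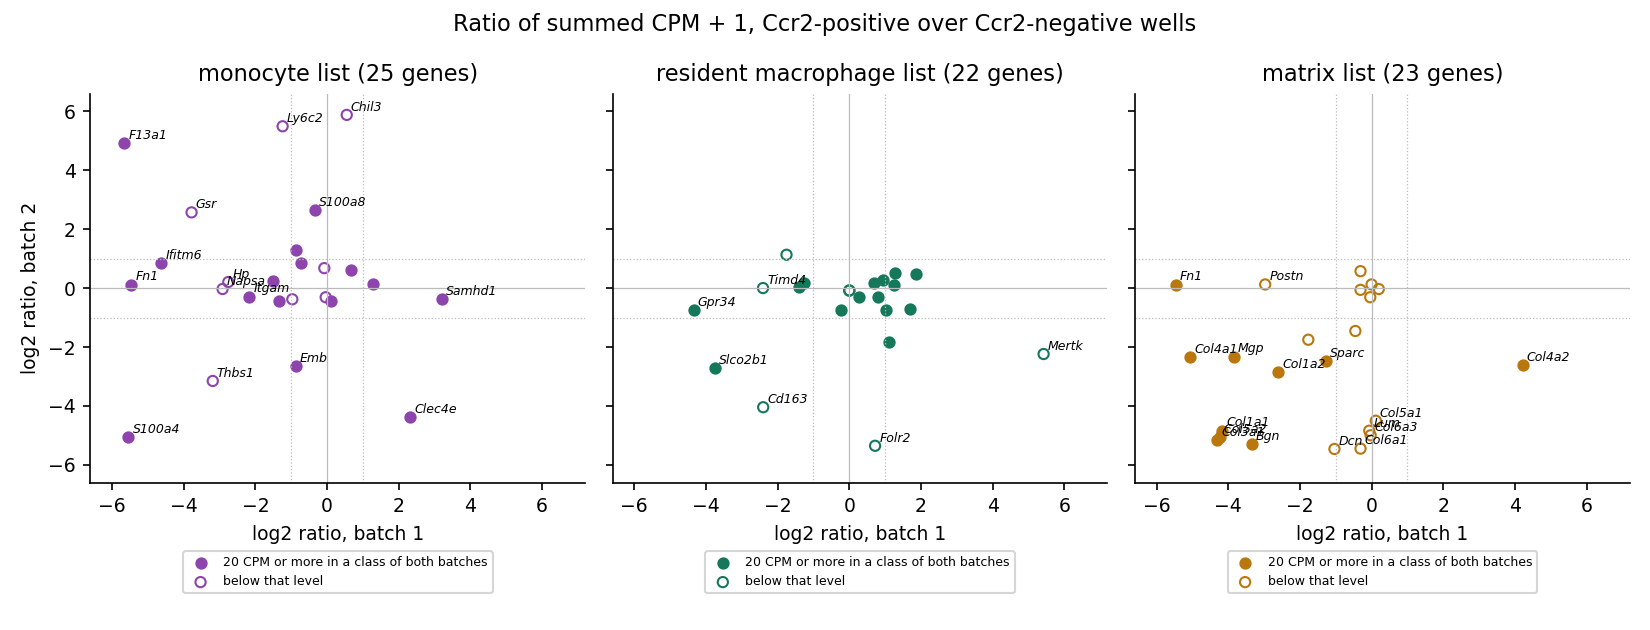
Each point is a gene of the monocyte, resident macrophage or matrix list, placed by its log2 ratio of summed CPM + 1 (Ccr2-positive over Ccr2-negative) in batch 1 (x axis) and batch 2 (y axis). Filled points reached 20 CPM in a class of both batches, dotted lines mark 2-fold, and genes beyond them in the lower left or upper right differed the same way in both batches. S100a4, Bgn and the fibrillar collagens lie in the lower left, and F13a1 lies at -5.66 and 4.92.

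No gene of resident macrophages was called lower, or higher, in Ccr2-positive wells. Of 22 genes, 15 reached the tested level, with a list median of 0.48 in batch 1 and -0.19 in batch 2. Apoe, an apolipoprotein that tissue macrophages make in bulk, summed to 11982 against 6824 CPM in batch 1 and 15033 against 18559 CPM in batch 2, ratios of 0.81 and -0.30. Cd81, a tetraspanin high on kidney resident macrophages, gave 0.69 and 0.18, with well medians of 674 against 536 CPM and 2376 against 2000.2 CPM. For Cd81 the difference between the batches was larger than that between the classes.

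Adgre1 had ratios of 1.28 and 0.53, and Cx3cr1, the fractalkine receptor, 0.93 and 0.27. Csf1r had 0.97 and 0.29, from medians of 34.3 against 17.4 CPM and 278 against 44 CPM. The sums of all 3 were higher in the positive class of both batches and short of 2-fold in at least 1, but the medians of batch 1 were the other way for Adgre1 (10.9 against 14.4 CPM) and Cx3cr1 (4.98 against 8.33 CPM). Without positive well 41 the Cx3cr1 ratio of batch 2 was -0.54, and without positive well 73 that of batch 1 was 0.32. Mrc1, the mannose receptor, gave 1.87 and 0.47. Ms4a7, a membrane protein of mature macrophages, gave 1.69 and -0.72 and Trem2, a lipid-sensing receptor, 1.02 and -0.74, opposite in the batches. Selenop, a selenium carrier, was at -1.27 and 0.18. Timd4, Lyve1, Vsig4, Cd163 and Folr2, which mark other resident populations, stayed under 100 CPM in every class.

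**Figure D4:**
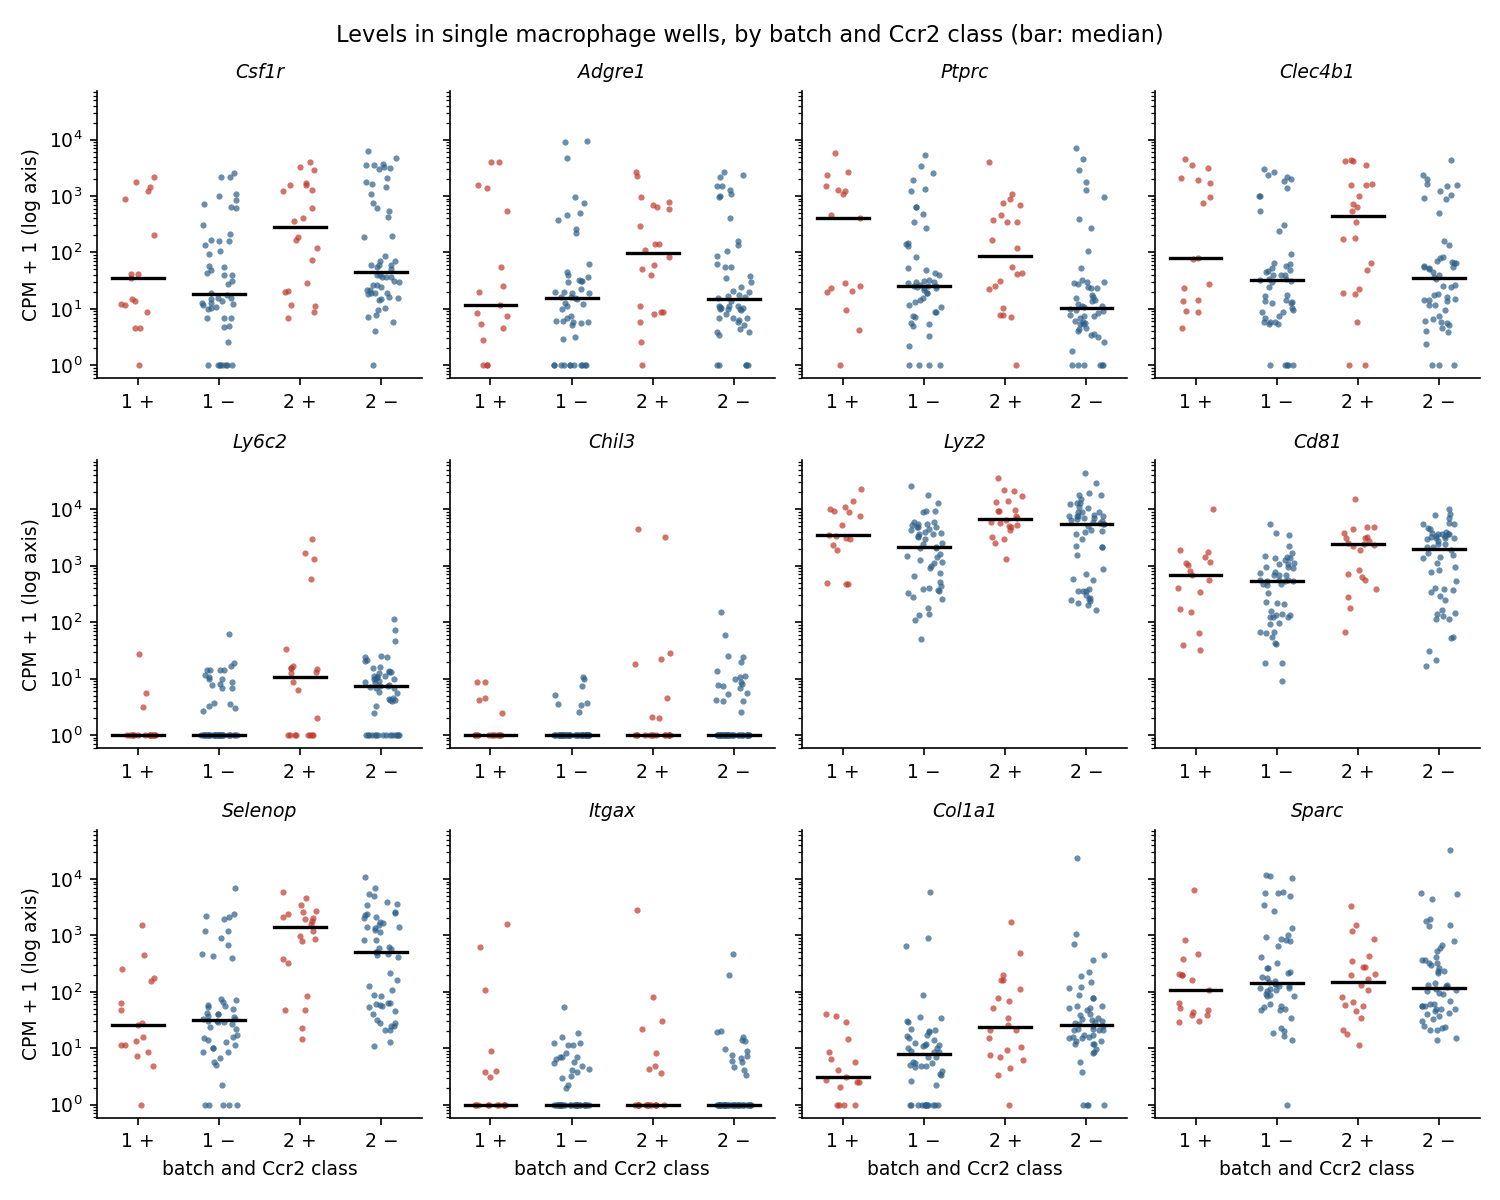
Each point is a member well, with batch and Ccr2 class on the x axis (1 + is batch 1 positive) and the level of the named gene on the y axis (CPM + 1, log axis), and bars are medians. The classes overlap over most of the range of Lyz2 and Cd81, with the lowest wells in the negative class, Ly6c2 is high in 4 positive wells of batch 2, and Col1a1 reaches 23586 CPM in 1 negative well.

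MHC class II transcripts were abundant in both classes. None of the 8 antigen presentation genes was called, though all reached the tested level, with list medians of 0.15 and 0.35. Cd74, the invariant chain, summed to 20927 against 16278 CPM in batch 1 and 39598 against 30018 CPM in batch 2, ratios of 0.36 and 0.40. The chains H2-Aa (0.21 and 0.24), H2-Ab1 (0.59 and 0.29) and H2-Eb1 (0.33 and 0.31) were likewise higher in the positive class by less than 2-fold. These 4 genes kept 1 direction over both batches and, apart from H2-Ab1, nearly 1 size. Ciita, their transcriptional activator, gave -4.36 and 5.00, each from 1 well at 100 CPM or more.

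CCR2's own ligands were made in both classes. Ccl2 summed to 1992 against 1601 CPM and 1587 against 901 CPM, ratios of 0.31 and 0.82, and 94.1% against 67.3% and 77.3% against 55.6% of wells were at 100 CPM. Ccl7 gave 0.38 (-0.93 without positive well 49) and 1.67, and Ccl12 -0.44 and 1.01. Among 21 chemokine and cytokine genes 17 reached the tested level and 0 were called by sums, with medians of -0.07 and 0.49, and Ccl2 alone was called by share, though not at the C1q limit of 5000 CPM. Ccl9 came close, with 408 against 179 CPM and 667 against 196 CPM (1.19 and 1.76), but not with each well left out.

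Il1b, the inflammasome cytokine, went opposite ways. It was at 100 CPM in 35.3% of positive and 57.7% of negative wells in batch 1, and in 81.8% against 50% in batch 2. The median positive well had 47.7 CPM in batch 1 and 2459 CPM in batch 2, while the median negative well had 151 and 104 CPM. The positive classes of the batches thus differed more from each other than the negative ones did. Tnf gave -1.17 and 1.63.

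Among 9 other chemokine receptor genes, 4 reached the tested level and none was called. Itgax, CD11c of dendritic cells and some macrophages, gave 5.73 and 3.54, and the latter was -0.55 without positive well 65, which held 2792 CPM. Irf8, a transcription factor of monocytes and dendritic cells, gave 1.39 and 1.52, the latter -0.52 without positive well 43. Batf3, a factor of cross-presenting dendritic cells, was called lower (-4.65 and -5.47), from 10 of 52 and 2 of 54 negative wells at 100 CPM and no positive one. After thinning, however, a Batf3 read was found in 52.9% of positive and 51.9% of negative wells of batch 1 and in 9.09% and 13% of batch 2. The call was lost with the C1q limit at 1000 or 5000 CPM, with a pseudocount of 10 and with thinning. Mean log2 ratios over both batches were then -5.07, -5.44, -3.43 and -2.68, in that order. Batf3 was the one gene called of 15 dendritic cell markers, and Flt3, Zbtb46 and Xcr1 were among the 9 that did not reach the tested level.

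Matrix genes were mostly lower in the sums of positive wells, with 3 and 4 of 23 ratios above 0. Of the 23, 10 reached the tested level, 0 were called higher and 2, Col4a1 and Bgn, lower, with medians of -1.04 and -2.48. Col1a1, the main chain of type I collagen, summed to 4.91 against 105 CPM in batch 1 and 63.6 against 1841 CPM in batch 2, beside 4907 and 6042 CPM in CD45- wells. Its ratios were -4.17 and -4.83, and the latter was -0.25 without negative well 18 of batch 2. That well alone held 23586 CPM of Col1a1 and 109663 CPM of the 23 matrix genes, at 4249 CPM of C1q and 1246070 reads, the deepest member of its class. Col1a1 was at 100 CPM in 0 of 17 positive and 3 of 52 negative wells of batch 1, and in 6 of 22 (27.3%) and 10 of 54 (18.5%) wells of batch 2, where the order of the shares was thus opposite to that of the sums.

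In batch 2 Col3a1 and Col1a2 also followed well 18. In batch 1 they were highest in negative well 91, whereas Col1a1 was highest in negative well 52, at 5787 CPM. Col3a1 had ratios of -4.30 and -5.15, which became -0.52 without negative well 91 of batch 1 and 0.54 without well 18 of batch 2. Col1a2 had -2.60 and -2.84, which became -0.30 and 0.08 without the same wells. Well 91 held 49711 CPM of matrix genes, 28372 of them Mgp, and lay just above the C1q limit at 528 CPM. With wells 91 and 18 out, the type I and III collagen ratios of both batches other than Col1a1 in batch 1 were within 2-fold. The highest Col1a1 well of batch 1, well 52, was not one of these.

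Bgn, the proteoglycan biglycan, and Col4a1, a basement membrane collagen, passed the call. Bgn summed to 9.52 against 106 CPM and 16.1 against 675 CPM, and its ratios of -3.35 and -5.31 were -2.07 and -3.46 without wells 91 and 18. It was at 100 CPM in 0 of 17 against 3 of 52 and 3 of 22 against 9 of 54 wells. Col4a1 gave -5.07 and -2.33, from 0 of 17 against 6 of 52 and 1 of 22 against 7 of 54 wells. After thinning, a Col4a1 read was found in 5.88% of positive and 30.8% of negative wells of batch 1. In batch 2 the order was the other way, 40.9% against 33.3%. Without wells that held 1000 CPM or more of stromal, T, B, natural killer cell or neutrophil markers, 0 matrix genes were called lower. The same held at a C1q limit of 5000 CPM. Mean log2 ratios over both batches were -3.09 and -3.24 for Bgn and -3.40 and -2.46 for Col4a1 in these settings. The stromal markers include Col1a1, Col1a2 and Col3a1, so the first setting itself removed wells high in matrix reads. With the Ccr2 limit at 50 CPM both calls were also lost, at mean ratios of -0.75 for Bgn and -2.68 for Col4a1. With any Ccr2 read against none the mean ratios were 3.01 and -1.42.

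Over whole wells the matrix sum overlapped between the classes. In batch 1 its median was 323 CPM in positive and 648 CPM in negative wells, and in batch 2 543 against 584 CPM. The highest positive wells had 9372 and 3723 CPM, above the upper quartile of the negative wells, 3275 and 1772 CPM. Sparc, a matrix glycoprotein that many cells make, was at 100 CPM in 9 of 17 against 35 of 52 and in 13 of 22 against 30 of 54 wells, and its batch 2 ratio of -2.48 was -0.40 without well 18. The stromal markers Pdgfrb, Pdgfra, Col1a1, Col1a2, Col3a1, Dcn and Lum summed to 1000 CPM or more in 0 of 17 positive and 3 of 52 negative wells of batch 1, and in 2 of 22 and 4 of 54 of batch 2. Their part in the collagen ratios beyond the named wells was not tested.

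**Figure D5:**
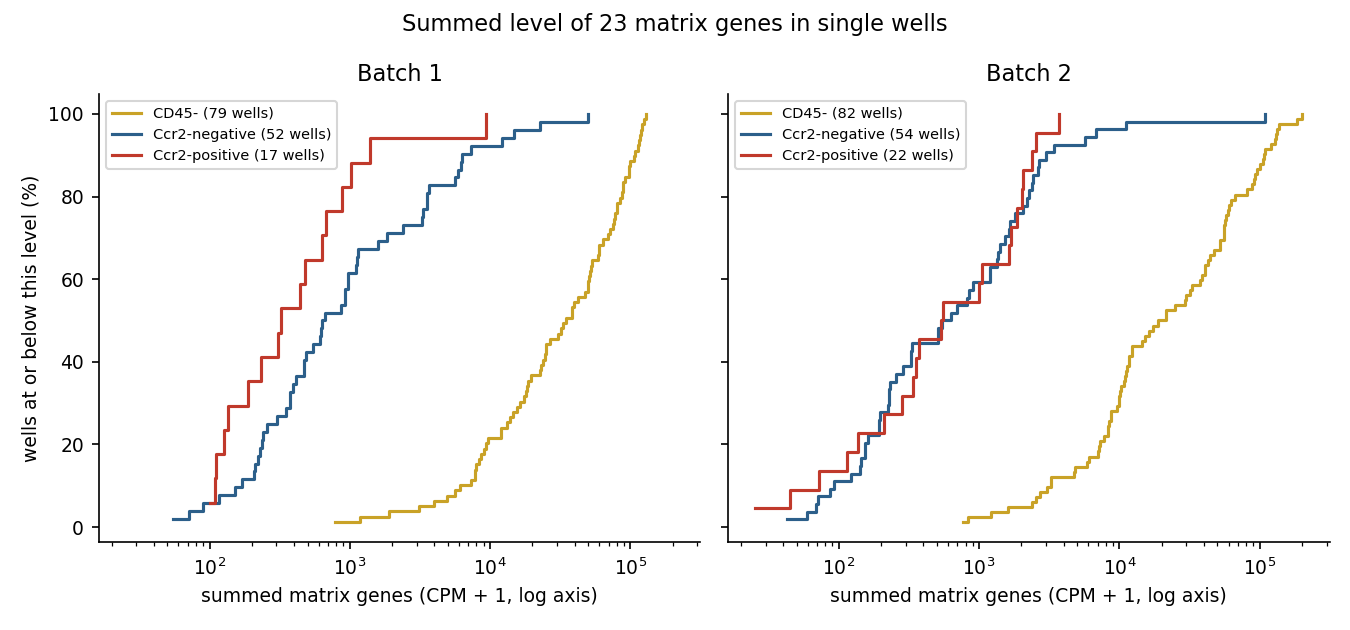
The curves give the percent of wells (y axis) at or below a summed level of the 23 matrix genes (x axis, CPM + 1, log axis) for Ccr2-positive, Ccr2-negative and CD45- wells of each batch. In batch 2 the curves of both Ccr2 classes lie on each other up to 1 negative well at 109663 CPM, in batch 1 the negative curve lies to the right, and CD45- wells lie well above both.

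Contractile genes, the myofibroblast mark, gave no call among 11, of which 5 reached the tested level. Acta2, smooth muscle actin, summed to 239 against 209 CPM in batch 1 and 1.9 against 127 CPM in batch 2, from 2 of 17 against 8 of 52 and 0 of 22 against 3 of 54 wells at 100 CPM. Its batch 1 ratio of 0.20 was -1.64 without positive well 95. Of 18 growth factor and remodelling genes 9 reached the tested level and 1, Timp2, a metalloproteinase inhibitor, was called lower, at 6.1 against 272 CPM and 3.24 against 199.8 CPM (-5.26 and -5.57). After thinning, 17.6% against 46.2% and 4.55% against 29.6% of wells had a Timp2 read, beside 55.7% and 45.1% of CD45- wells. The call was lost with the Ccr2 limit at 50 CPM and with any read against none, at mean ratios of -2.96 and -1.07. Spp1, osteopontin, was lower by sums in both batches (-0.74 and -2.64), but 0.37 in batch 1 without negative well 35. Tgfb1 was under 10 CPM in every class.

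Of 258 listed genes, 2 had a thinned share at least 20 points higher in the positive wells of both batches. Only 1, Timp2, had a thinned share at least 20 points lower in both. Plin2, which coats lipid droplets, had a read in 64.7% against 23.1% of wells in batch 1 and 86.4% against 55.6% in batch 2, beside 35.4% and 50% of CD45- wells. Cd72, a lectin-like inhibitory receptor, had one in 64.7% against 44.2% and 68.2% against 46.3%. With all reads neither passed, at 100% against 92.6% (Plin2) and 81.8% against 74.1% (Cd72) in batch 2, and the 2 genes that did were others, Lipa and Cdh16. Plin2's summed ratios were 1.28 and 1.23, but 0.13 in batch 1 without positive well 23. With the C1q limit at 5000 CPM Plin2 was also among the 14 genes higher by their share of wells at 100 CPM. Of 17 lipid-handling genes 14 reached the tested level and 0 were called by sums.

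Of 12 interferon response genes 10 reached the tested level, and the most abundant of them, Ifi27l2a, gave 0.04 and 0.32. Cell cycle genes (5 of 13 tested) and genes of dissociation stress (13 of 15) had no call. Dissociation genes had well medians of 11465 against 6859.7 CPM and 14148 against 8358 CPM, higher in the positive wells of both batches.

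Reads of other cell types were found in members of both classes. Natural killer cell markers reached 38473 CPM in positive well 56 of batch 1 and 49813 CPM in negative well 53 of batch 2, against medians of at most 15.2 CPM. Neutrophil markers reached 68958 CPM in negative well 8 of batch 1 and 58232 CPM in positive well 85 of batch 2. Endothelial markers summed to 1000 CPM or more in 1 of 17 positive and 7 of 52 negative wells of batch 1, and in 2 of 22 and 10 of 54 of batch 2. Tubule markers did so in 2 of 17 and 5 of 52, then 0 of 22 and 6 of 54 wells. Umod, the tubule's uromodulin, was called lower (-5.55 and -4.76). That call was lost with the Ccr2 limit at 50 CPM or a minimum of 100000 reads, at mean ratios of -2.98 and -4.86. With all reads, a Umod read was found in 70.6% of positive and 69.2% of negative wells of batch 1, and in 31.8% and 33.3% of batch 2. After thinning these shares were 35.3% against 34.6% and 4.55% against 16.7%. With all wells of 1000 CPM or more of stromal, T, B, natural killer cell or neutrophil markers left out, 25 genes were called higher and 142 lower, beside 21 and 185 with them. Whether a well held more than 1 cell was not tested.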

How the data were processed

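The authors deposited raw read counts per gene and well, whole numbers whose totals differ between wells. Complementary DNA was made well by well with the SMARTer system, per the labels' protocols, and no molecular identifiers are stated, so counts are of reads. STAR (3.0.4 as listed), Subread and featureCounts 1.4.5 were used, per the submitters' processing notes; the genome build is not given in the sources used here. Repeated gene lines (598 of 41192 and 595 of 41228, 2.39% and 2.42% of counts) were dropped, which left 40594 genes in both tables. Where a symbol belonged to several identifiers, the one with most reads was used.

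Wells were grouped by the gate and batch of the labels. CPM were computed from the counts with numpy 2.4.6 and pandas 2.3.3, and exact Clopper-Pearson 95% intervals with scipy 1.17.1. The calling code was tested on simulated data in which wells of a class differed only by depth and counting error. That test thus does not cover calls that rest on a few wells. Member wells held 54875 to 1246070 reads, and no pair of them correlated above 0.675 in log2 CPM. Per direction, up to 12 called genes were to be named that had a read in 25% of the higher class's wells and that no single well moved over 1.5 times, which left Clec4b1 and Atp6v0b. Called and abundant members of 23 gene lists were also named, except some genes that are not reported here, and other genes named in the text were chosen after their values were seen. The members and lists were chosen with earlier results of these data known. Alternatives were other limits for Ccr2, C1q, reads and level, other scaling and pseudocounts, means of wells and thinning. The share of wells at 100 CPM, the C1q limit of 5000 CPM and the leaving out of wells with other markers and of well 18 of batch 2 were added after the data had been seen. No doublet caller was run.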

Additional observations from a re-analysis of the deposited data

Results flagged for a closer look

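Ccr2 was also found in wells outside the comparison. In batch 1, 4 CD45+ wells below the C1q minimum held 3633 CPM (well 26), 1533 CPM (well 27), 1562 CPM (well 39) and 2040 CPM (well 72), where the highest CD45- well of that batch had 91.8 CPM. Their summed C1q levels lay between 172 and 326 CPM. Wells 27 and 39 held 1048 and 1743 CPM of the monocyte antigen Ly6c2, with 11192 and 33343 CPM of Lyz2, and 604 and 549 CPM of the class II chain Cd74. Wells 26 and 72 held no Ly6c2 read, but 9808 and 16611 CPM of Cd74. The C1q limit thus left out the CD45+ wells of batch 1 in which Ccr2 and Ly6c2 were both high, and no positive member of batch 1 was above 26.7 CPM of Ly6c2. The other 3 wells below the limit in batch 1, and the 2 in batch 2, had at most 10.7 CPM of Ccr2. In batch 2, CD45- well 51 held 2358 CPM of Ccr2, against 92.3 CPM in the next CD45- well. It also held 22168 CPM of C1q, 35964 CPM of Cd74, 15058 CPM of Lyz2 and 14929 CPM of red cell markers, with 9.21 CPM of Ptprc.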

How the results depend on the processing

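No paired analysis was possible because replicate numbers only name wells and no test was run. The counts of genes called higher (21) and lower (185) in positive wells became 34 and 124 with the Ccr2 limit at 50 CPM, 1160 and 0 with any Ccr2 read against none, 11 and 103 with a pseudocount of 10, 276 and 607 without the condition on left-out wells, 17 and 0 by shares of wells at 100 CPM, 29 and 104 with the C1q limit at 5000 CPM, and 14 and 1 with both of the latter. The other settings stayed within 1.5 times both counts. Of all calls, 10.2% were higher, against 21.5% at 50 CPM, 100% for any read or by shares, 93.3% for shares with the raised C1q limit, 31.3% without left-out wells and 21.8% at the raised C1q limit alone. Monocyte genes called higher stayed at 0 except 6 with any read, and resident macrophage genes called lower at 0 except 1 without left-out wells. Matrix genes called higher were 0 except 1 with any read. Matrix genes called lower, 2 as reported, were 0 at 50 CPM, with any read, by shares, without wells of other markers and with the C1q limit at 5000 CPM by sums or shares, 1 with that limit at 1000 CPM or without well 18 of batch 2, and 8 without left-out wells. The count of thinned shares lower by 20 points was 0 with all reads, against 1. Among 95 named genes, the mean log2 ratio of a called gene changed sign in 6 cases, each with any read against none: Atp6v0b 0.26, Batf3 5.16, Bgn 3.01, Clec4b1 -0.17, S100a4 5.36 and Umod 5.08. Calls were lost in 24 cases and gained in 22, and 214 values moved by over 1.5 times. Median-of-ratios scaling shifted the median ratio of all genes from -0.27 and -0.12 to -0.46 and -0.29. The cause of these changes was not tested. With 17 to 54 wells a class and 1 plate a batch, a gene caught in few wells has a wide counting error.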
